A study of Bos taurus with 11 samples.

Results

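DNA replication genes encode the proteins that license, unwind and copy the genome in S phase. The set examined here was a list of 49 such genes, and its members were the array probes whose deposited gene name equals a listed symbol. This rule found 94 probes for 39 genes, of 25325 gene names on the array. The endometrium, the inner lining of the uterus, was sampled by biopsy on day 7 of the oestrous cycle, and RNA of each cow (Bos taurus) was read on 1 Agilent 1-colour oligonucleotide array. The 6 fertile cows had become pregnant in no more than 3 attempts at artificial insemination or embryo transfer, and did so again at the first transfer after the biopsy. The subfertile group held 5 cows in which 3 attempts in a row had failed, whose cycles looked normal and whose genital tract showed no abnormality. No cow is described as treated, and breed and age are not given in the sources used here.

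Replication is prepared in G1, when the origin recognition complex, CDC6 and CDT1 load the ring of MCM2 to MCM7 onto DNA. Cyclin E with CDK2, and the kinase CDC7, then switch the ring on together with CDC45 and the GINS proteins. Primase and polymerase alpha lay primers, polymerases delta and epsilon extend them on the PCNA clamp, and RPA covers the single strands. In the endometrium, cells of the glands, surface and stroma divide in step with the ovarian steroids, and transcripts of many of these genes are known to peak in dividing cells.

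A level is the log2 processed signal of a probe minus the 75th percentile of its array, and a difference is subfertile minus fertile on that log2 scale. Of the 94 probes, 86 carried the scanner software's flag for a signal well above background on 5 or more of the 11 arrays and were tested, which left 36 genes. CDC6, which loads the helicase, GINS4, a subunit of the GINS complex, and POLE, the catalytic subunit of polymerase epsilon, had no tested probe. A gene is represented by its brightest tested probe unless another is named, and levels of different genes are not compared. MCM2, CDT1 and RFC1 were not analysed here, and the origin recognition genes and GINS2 are given apart, since other names stand for them on the array.

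The arrays differed between the groups in brightness before scaling. The median processed signal was 161 to 452 on fertile and 54.3 to 92.7 on subfertile arrays, and 72.0% to 77.4% and 64.2% to 74.1% of probes were well above background. By the file headers, subfertile cows shared 1 scan day over 3 slides, fertile cows had 3 other scan days and 3 other slides, and both are unknown for fertile cow 6. Slide, scan day and fertility group can therefore not be told apart. Epithelial markers were higher in subfertile cows for 8 of 14 tested genes (median difference 0.54), with a list mean of -0.63 to -0.08 in fertile and -0.05 to 0.42 in subfertile cows. Of 12 stromal markers, 2 were higher and 2 lower, with list means of -0.03 to 0.22 and -0.36 to 0.04. Over all gene names 14.2% were higher and 7.89% lower. Of ciliated cell markers 4 of 7 were higher (median difference 1.22), of smooth muscle markers 2 of 7 (0.82), of endothelial markers 2 of 7 (0.23) and of B and plasma cell markers 2 of 3 (0.51), with none lower. Of 7 macrophage markers 1 was lower (median -0.46), of 9 T and NK cell markers 1 was higher (0.09), and of 5 erythroid markers 1 was higher and 1 lower (0.33). For these other lists the part in the results was not tested.

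The probe sequences shown first are those of 3 helicase genes whose upstream probes gave another difference than the 3′ probes. The sign was another in MCM3 and at base 1854 of MCM4. Only the size was another in MCM5 and at base 2435 of MCM4. Shown are the probes away from the 3′ end of MCM4, MCM5 and MCM3, each 60 bases, 5′ to 3′, copied from the deposited scanner files. Each reads through in at least 1 frame without a stop codon, and capitals mark codons for conserved ATPase motifs of the MCM family, the arginine finger in MCM4 and the Walker B motif in MCM5.
MCM4, first base 1854: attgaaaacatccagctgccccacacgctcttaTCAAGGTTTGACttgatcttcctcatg
MCM4, first base 2435: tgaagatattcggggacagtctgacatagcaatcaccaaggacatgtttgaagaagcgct
MCM5, first base 1343: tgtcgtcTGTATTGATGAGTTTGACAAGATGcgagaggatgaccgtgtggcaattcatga
MCM5, first base 2103: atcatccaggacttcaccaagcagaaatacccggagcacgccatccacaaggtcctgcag
MCM3, first base 1647: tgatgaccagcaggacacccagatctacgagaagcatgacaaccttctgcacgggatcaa
MCM3, first base 1996: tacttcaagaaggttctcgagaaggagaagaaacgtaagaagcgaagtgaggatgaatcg
The number after each name is the position of the probe's first base in the transcript, as the array annotates it. On build HGSC Btau_3.1 the array places the MCM4 probes at chr14:19218941-19219692 and chr14:19221146-19221862 on the plus strand, spans of 752 and 717 bases, so that each crosses an intron. The MCM5 probes lie at chr5:79109877-79110260 and chr5:79116351-79117364 on the plus strand. The MCM3 probes lie at chr23:25212322-25212381 and chr23:25209596-25210520 on the minus strand.

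RFC2, a subunit of the clamp loader, POLD2, a subunit of polymerase delta, and LIG1, DNA ligase 1, each passed the test on a probe away from the 3′ end while their brightest probe did not. These probes are shown because the calls rest on them; within each of these genes all tested probes had the same sign.
RFC2, first base 928: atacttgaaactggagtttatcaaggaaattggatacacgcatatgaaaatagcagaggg
POLD2, first base 949: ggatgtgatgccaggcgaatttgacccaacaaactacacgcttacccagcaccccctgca
LIG1, first base 1612: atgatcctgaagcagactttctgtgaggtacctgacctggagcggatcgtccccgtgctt
Their places on the same build are chr25:35244125-35244921 on the plus strand, chr4:79947307-79947366 on the plus strand and chr18:54724407-54724989 on the minus strand.

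Most replication genes did not differ between the groups beyond the test's threshold. RPA2 rose by 0.70 ± 0.13 (SE), while the E-type cyclin CCNE2 fell by 1.08 ± 0.21 and the kinase CDC7 fell by 0.46 ± 0.13, n = 6 fertile and 5 subfertile cows. The other 33 of 36 genes did not pass (limma, Benjamini-Hochberg adjustment over 31876 tested probes, threshold 0.05). The share called was 8.33%, against 22.1% of the brightest probes of all 18444 gene names, of which 14.2% were higher and 7.89% lower. The median difference of the 36 genes was 0.05 (-0.018 under quantile normalization and -0.039 under median centring), against 0.07 over all tested probes and 0.06 over all gene names, and 15 of 36 lay below 0 (41.7%, against 44.4% of gene names). At an unadjusted p under 0.05, 11 genes passed, 6 higher and 5 lower, 30.6% of members against 36.7% of gene names. In a biopsy, fewer cells of a type and less RNA per cell cannot be told apart.

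The count of 3 depended on the setting. With scan day as a random block, 0 of 36 passed in limma (3 at an unadjusted p under 0.05), when 975 of all 31876 tested probes did. With a covariate for epithelial minus stromal marker levels 1 passed, MCM3 at -1.64 (limma, adjusted p = 0.0378), when 728 of all tested probes did. With normexp background correction (offset 50) 11 passed, 9 of them higher, when 17081 of all tested probes did. Leaving out fertile cow 6 gave 6 genes, 4 higher and 2 lower. Over the runs that left out 1 cow, 4526 to 7297 of all tested probes passed.

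**Figure D1:**
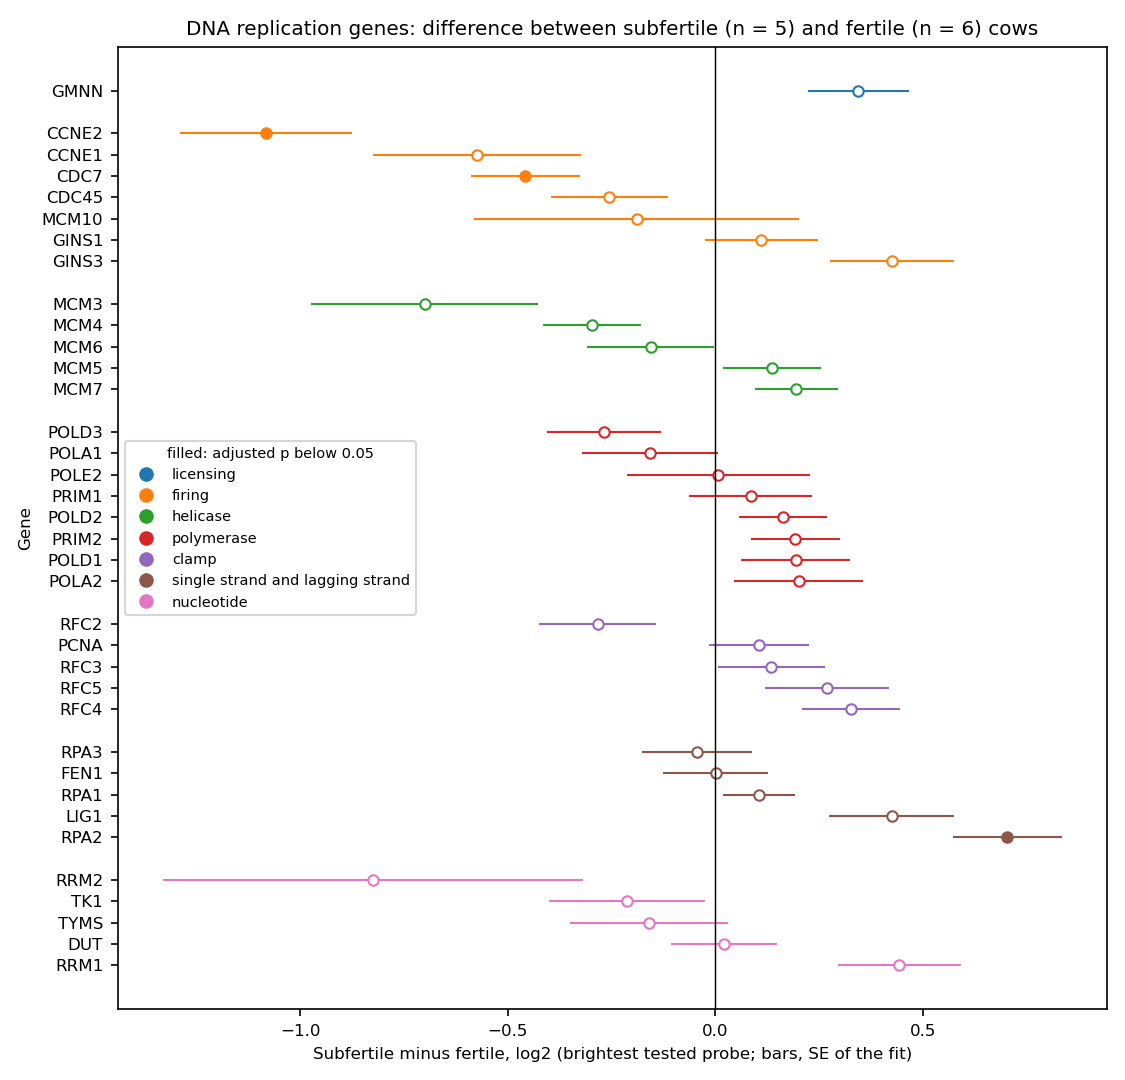
Difference between subfertile (n = 5) and fertile (n = 6) cows for the brightest tested probe of each of 36 DNA replication genes, on the log2 scale, grouped by role; points are the fitted difference, bars its SE, and filled points passed at an adjusted p of 0.05. RPA2 at 0.70, CDC7 at -0.46 and CCNE2 at -1.08 are filled, and the other 33 points are open and lie on both sides of 0.

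Licensing was represented by 1 tested gene. GMNN, geminin, which binds CDT1 and keeps origins from being licensed again, had levels of 1.19 to 1.58 in fertile cows (median 1.35) and of 1.61, 1.76, 1.63, 1.51 and 2.05 in subfertile cows 1 to 5. Only subfertile cow 4 overlapped the fertile range. Its difference of 0.34 ± 0.12 did not pass (limma, adjusted p = 0.0632), and its other probe was at 0.20.

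Genes that fire the origins held both of the genes that fell, and the median of the 7 was -0.26. CCNE2, a cyclin that activates CDK2 at the start of S phase, had levels of -4.74 to -3.90 in fertile cows (median -4.19) and of -5.07, -5.33, -4.75, -5.90 and -5.49 in subfertile cows 1 to 5. The groups lay side by side with a gap of 0.01 between fertile cow 2 and subfertile cow 3. The difference of -1.08 ± 0.21 was 2.12-fold (limma, adjusted p = 0.00493), and the second CCNE2 probe, at -0.59, did not pass. All 6 fertile arrays but only 3 of 5 subfertile arrays held the brightest CCNE2 probe well above background, and with normexp background correction its sign turned, at 0.44 (adjusted p = 0.0440).

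CCNE1, the paralog of CCNE2, was lower in 4 of 5 subfertile cows. Its levels were -4.85 to -4.36 in fertile cows (median -4.68) and -5.37, -5.73, -5.45, -5.48 and -4.10 in subfertile cows 1 to 5. Subfertile cow 5 was the highest of all 11 cows and the other 4 the lowest. The difference of -0.57 ± 0.25 did not pass with cow 5 (limma, adjusted p = 0.120) and passed without it, at -0.86 (adjusted p = 0.00334). As with CCNE2, 3 of 5 subfertile arrays held its probe well above background, and with normexp background correction its sign turned, at 0.76.

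CDC7, the kinase that phosphorylates the MCM ring, fell by a smaller amount on a probe detected in every cow. Its levels were 0.02 to 0.64 in fertile cows (median 0.25) and -0.39, -0.07, -3e-04, -0.20 and -0.12 in subfertile cows 1 to 5, without overlap. The difference of -0.46 ± 0.13 was 1.37-fold (limma, adjusted p = 0.0286), and its second probe had the same difference of -0.46 but did not pass (adjusted p = 0.131). It no longer passed when any of 6 cows was left out (fertile 1 or 3, subfertile 1, 2, 4 or 5), with an adjusted p of up to 0.0638. Within the fertile group, cows 2 and 5 on slide 2 stood 0.48 below cows 1 and 3 on slide 1 for this probe, as large a gap as that between the groups. With the same marker covariate the CDC7 difference was -0.06 (adjusted p = 0.877). For CCNE2 slide 2 minus slide 1 was -0.59, and the covariate left -0.70 (adjusted p = 0.280).

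The remaining firing genes did not pass. CDC45, which joins the MCM ring to form the active helicase, was at -0.26 ± 0.14. GINS1 was at 0.11 ± 0.14 and GINS3 at 0.42 ± 0.15 (limma, adjusted p = 0.0607), both subunits of the GINS complex that completes that helicase. The other GINS1 probes were at 0.12 and -0.45, and neither passed (adjusted p = 0.604 and 0.0653). GINS3 was even in subfertile cows, from -0.32 to -0.09, whereas fertile cows ran from -0.98 to -0.07. MCM10, which is needed to start unwinding, varied more between cows than any other member except RRM2: its levels were -3.41 to -2.00 in fertile cows and -3.65, -3.88, -2.23, -2.77 and -1.68 in subfertile cows 1 to 5. Its difference was -0.19 ± 0.39, within that spread.

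**Figure D2:**
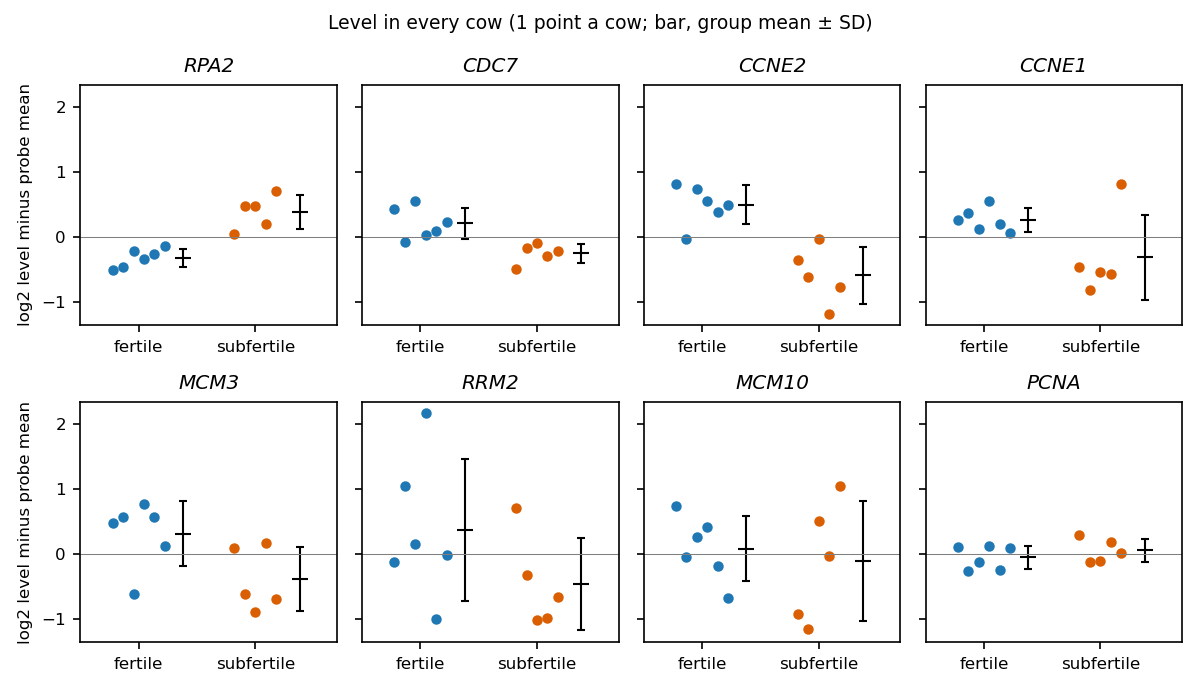
Level of 8 replication genes in each cow, as the log2 level of the brightest probe minus its mean over the 11 cows; points are cows, and the bar beside each group is its mean ± SD (n = 6 fertile, n = 5 subfertile). RPA2, CDC7 and CCNE2 do not overlap between the groups, 1 subfertile cow stands above all others for CCNE1, 1 fertile cow stands 2.17 above the mean for RRM2, and the pooled within-group SD of PCNA is the smallest of the 8.

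The helicase ring gave 0 of 5 genes past the threshold on their brightest probes, with a median of -0.16, and 2 of 5 at an unadjusted p under 0.05. MCM7 was at 0.19 ± 0.10, MCM5 at 0.14 ± 0.12, MCM6 at -0.16 ± 0.15, MCM4 at -0.30 ± 0.12 (limma, adjusted p = 0.0927) and MCM3 at -0.70 ± 0.27 (adjusted p = 0.0866). These genes encode subunits of 1 ring in which each has a single place. Of the 12 probes that passed and lie where their gene does, MCM4 and MCM5 held 5, and their differences changed along the transcript.

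MCM4 was the only member with probes called in both directions. Its probe at base 1854 had levels of -3.74 to -2.63 in fertile cows (median -3.50) and of -2.32, -2.24, -1.87, -2.27 and -1.80 in subfertile cows 1 to 5. All subfertile cows were above all fertile cows, a rise of 1.18 ± 0.23 or 2.27-fold (limma, adjusted p = 0.00536). Near the 3′ end the order was the opposite: the probe at base 2973 had levels of -0.63 to -0.05 in fertile cows (median -0.42) and of -0.71, -1.11, -1.06, -0.97 and -0.89 in subfertile cows, a fall of 0.58 ± 0.12 (adjusted p = 0.00828). The probe at base 2948 fell by 0.42 ± 0.12 (adjusted p = 0.0283), a call lost without fertile cow 1 or subfertile cow 1 or 3. The brightest probe at base 2937 was at -0.30 and the probe at base 2435 at -0.07. The 3 probes nearest the 3′ end share 24 to 49 bases with each other, without a mismatch, and so do not count as separate measurements. For the upstream probe the fertile cows themselves split by slide, with slide 2 above slide 1 by 1.03, whereas the 3′ probes differed by -0.15 to -0.17 between those slides.

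MCM5 showed the same order with all probes above 0. The probe at base 1343 had levels of -4.90 to -3.63 in fertile cows (median -3.95) and of -3.15, -3.17, -3.23, -2.98 and -3.09 in subfertile cows 1 to 5, a rise of 0.92 ± 0.19 or 1.90-fold (limma, adjusted p = 0.00765). The probe at base 2103 had levels of -0.78 to -0.24 in fertile cows (median -0.47) and of 0.14, 0.04, -0.21, -0.10 and 0.07 in subfertile cows, a rise of 0.46 ± 0.11 (adjusted p = 0.0157). Neither probe overlapped between the groups. The brightest probe, at base 2312, was at 0.14 ± 0.12 (adjusted p = 0.433), and fertile and subfertile cows were mixed, from 1.47 to 1.89 and from 1.61 to 1.93.

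The 4 tested MCM3 probes did not give 1 direction. The brightest, at base 2942, had levels of -1.87 to -0.49 in fertile cows (median -0.73) and of -1.16, -1.87, -2.15, -1.08 and -1.95 in subfertile cows 1 to 5, with fertile cows 3 and 6 inside the subfertile range. The upstream probes at bases 1647 and 1996 were at 0.30 ± 0.17 and 0.46 ± 0.18, and neither passed (limma, adjusted p = 0.232 and 0.0844). The probe that passed, at -0.76 ± 0.11 (adjusted p = 0.00131), had levels of -1.73 to -1.24 in fertile cows (median -1.51) and of -2.09, -2.23, -2.36, -2.19 and -2.39 in subfertile cows, without overlap. Although named MCM3, that probe is placed on chromosome 9 by the array, whereas the other MCM3 probes are placed on chromosome 23, so that its call is not taken as one of MCM3.

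**Figure D3:**
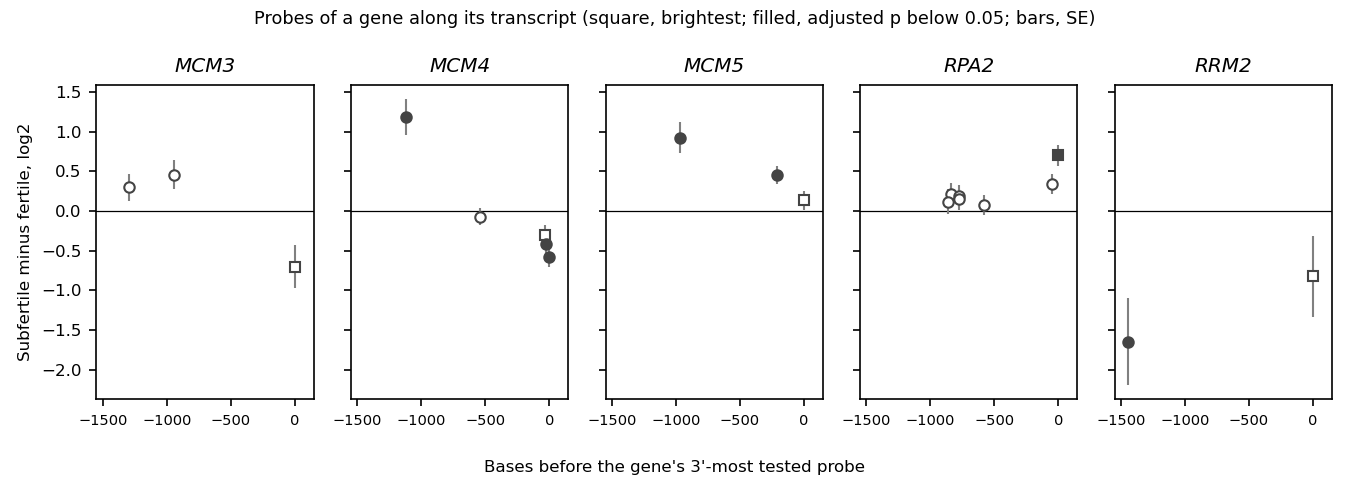
Difference between the groups (subfertile minus fertile, log2, bars SE) for each tested probe of MCM3, MCM4, MCM5, RPA2 and RRM2, against the number of bases before the gene's 3′-most tested probe; squares are the brightest probe, filled symbols passed at an adjusted p of 0.05, and the MCM3 probe placed on another chromosome is left out. The upstream probes of the 3 MCM genes lie above their 3′-most probe, by 1.76 for MCM4, and the upstream probes of RPA2 lie below it.

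This order along the transcript was not shared by the replication genes as a set. Over 38 pairs of an upstream probe and the 3′-most probe of the same transcript, at least 200 bases apart in 22 genes, the upstream probe had the higher difference in 20 (52.6%, median gap 0.004). Over all 9623 such pairs on the array it was 56.8%, with a median gap of 0.07. MCM4, MCM3 and MCM5 gave gaps of up to 1.76, 1.16 and 0.79, and RRM2 and RPA2 gaps of -0.82 and down to -0.63. The pattern was noticed in these data and carries no test.

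On their brightest probes the polymerases gave 0 of 8 genes past the threshold, and 0 of 8 at an unadjusted p under 0.05. Those differences ran from -0.27 to 0.20, with a median of 0.12. For polymerase alpha and its primase, which make the primers, POLA1 was at -0.16 ± 0.16, POLA2 at 0.20 ± 0.16, PRIM1 at 0.08 ± 0.15 and PRIM2 at 0.19 ± 0.11. For polymerase delta, the main lagging strand enzyme, the catalytic subunit POLD1 was at 0.19 ± 0.13, POLD2 at 0.16 ± 0.11 and POLD3 at -0.27 ± 0.14. POLE2, a subunit of polymerase epsilon, was at 0.01 ± 0.22. Among dimmer probes, PRIM2 at 0.35 and 0.47, POLD3 at -0.45 and POLD2 at 0.24 (base 473) had an unadjusted p under 0.05 (limma). None of these dimmer probes passed the threshold. A second POLD2 probe, at base 949, passed: its levels were -2.29 to -2.04 in fertile cows (median -2.10) and -1.59, -1.51, -1.60, -1.77 and -2.02 in subfertile cows 1 to 5. Subfertile cow 5 stood next to the fertile cows, and without subfertile cow 2 the rise of 0.43 ± 0.11 (limma, adjusted p = 0.0183) no longer passed (adjusted p = 0.0523).

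PCNA, the sliding clamp and a common marker of cycling cells, did not differ by its brightest probe. Its levels were 2.07 to 2.45 in fertile cows (median 2.31) and 2.62, 2.22, 2.22, 2.52 and 2.35 in subfertile cows 1 to 5, and the groups overlapped. The difference was 0.11 ± 0.12 (limma, adjusted p = 0.557), and the other PCNA probes were at 0.13 and -0.10. Of the clamp loader, RFC3 was at 0.13 ± 0.13, RFC4 at 0.33 ± 0.12 (adjusted p = 0.0680), RFC5 at 0.27 ± 0.15 and RFC2 at -0.28 ± 0.14, so that 3 of 4 loader subunits lay above 0 and none passed on the brightest probe.

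RFC2 passed on its other probe, at base 928. Levels there were -3.09 to -2.74 in fertile cows (median -2.81) and -3.31, -3.59, -3.47, -3.40 and -3.30 in subfertile cows 1 to 5, without overlap. The fall was 0.56 ± 0.10 (limma, adjusted p = 0.00340). After normexp background correction it lay at 0.05 (adjusted p = 0.658).

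RPA2, a subunit of the complex that coats single-stranded DNA, was the only member called higher on its brightest probe. Its levels were 2.09 to 2.46 in fertile cows (median 2.29) and 2.63, 3.08, 3.08, 2.80 and 3.31 in subfertile cows 1 to 5, so that all subfertile cows were above all fertile cows. The rise of 0.70 ± 0.13 was 1.63-fold (limma, adjusted p = 0.00445). It passed on leaving out each cow in turn, and slides 1 and 2 of the fertile group differed by 0.01. Blocking on scan day removed the RPA2 call, at 0.70 (limma, adjusted p = 0.0838), and so did the marker covariate. The rise rested on the 3′-most of 7 probes. The other 6 lay between 0.08 and 0.34 and did not pass, and the mean of the 7 was 0.25 (adjusted p = 0.168). The nearest of them starts 52 bases upstream and stood at 0.34 ± 0.12 (adjusted p = 0.0675). The partners of RPA2 in the complex did not pass, with RPA1 at 0.10 ± 0.09 and RPA3 at -0.04 ± 0.13.

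The enzymes that finish lagging strand fragments lay at or above 0. FEN1, the nuclease that trims flaps, was at 0.0003 ± 0.13. LIG1, which seals the nicks, had levels of 1.60 to 2.42 in fertile cows (median 1.80) and of 2.48, 2.13, 2.33, 2.11 and 2.46 in subfertile cows 1 to 5, with fertile cow 3 inside the subfertile range. Its difference of 0.42 ± 0.15 did not pass (limma, adjusted p = 0.0634). All 4 LIG1 probes were above 0, and the one at base 1612 rose by 0.80 ± 0.24 (adjusted p = 0.0335), with levels of -6.01 to -4.73 in fertile cows (median -5.29) and of -4.19, -4.97, -4.43, -4.90 and -4.34 in subfertile cows 1 to 5. It no longer passed when any of 7 cows was left out (fertile 1, 4, 5 or 6, subfertile 1, 3 or 5), with an adjusted p of up to 0.0763.

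RRM1 and RRM2 encode subunits of ribonucleotide reductase, the enzyme that makes deoxynucleotides, and neither passed on its brightest probe. RRM1, the large subunit, had levels of 3.21 to 4.04 in fertile cows (median 3.64) and of 4.13, 4.09, 3.88, 3.90 and 4.12 in subfertile cows 1 to 5. Its difference of 0.44 ± 0.15 lay just outside the threshold (limma, adjusted p = 0.0514). The other RRM1 probe, which shares 32 bases with it, was at 0.22 ± 0.14 (adjusted p = 0.266). RRM2, the small subunit whose supply limits the enzyme in S phase, had levels of -5.14 to -1.97 in fertile cows (median -4.07) and of -3.43, -4.47, -5.15, -5.12 and -4.79 in subfertile cows. Fertile cow 4 was the highest and the groups overlapped. The RRM2 difference of -0.82 ± 0.51 did not pass (adjusted p = 0.263), and it was -0.46 without fertile cow 4.

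The second RRM2 probe, at base 1528, passed by a small margin. Its levels were -5.44 to -2.16 in fertile cows (median -4.32) and -4.59, -6.00, -6.91, -6.01 and -5.07 in subfertile cows 1 to 5, and 2 of 5 subfertile arrays held it well above background. Its fall of 1.65 ± 0.55 (limma, adjusted p = 0.0497) no longer passed when any of 9 cows was left out (all but fertile 5 and subfertile 1), with an adjusted p of up to 0.107, and with normexp background correction the difference was 0.25. The salvage enzyme TK1 was at -0.21 ± 0.19, thymidylate synthase TYMS at -0.16 ± 0.19 and DUT, which clears dUTP, at 0.02 ± 0.13. None of these 3 passed. The other DUT probes were at -0.07 and -0.33, and neither passed (limma, adjusted p = 0.66 and 0.0817).

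Over all probes of the 36 genes, 13 of 86 passed, 6 higher and 7 lower, among them the probe named MCM3 on chromosome 9; without it 12 passed, 6 in each direction. That is 15.1%, against 22.2% of all tested probes, of which 14.8% were higher and 7.38% lower. Under quantile normalization 5 were higher and 9 lower, when 3243 of all tested probes were higher and 3146 lower, against 4715 and 2351 here. Under median centring 6 were higher and 9 lower, when 3202 and 3396 of all tested probes were. With normexp background correction 36 were higher and 7 lower, when 14919 and 2162 of all tested probes were. Taking scan day as a random block left 1 call, when 975 of all tested probes passed. The marker covariate left 3, when 728 of all tested probes passed. The groups did not overlap for 11 of the 86 (12.8%, against 13.5% of all tested probes), 5 higher and 6 lower, against 9.65% and 3.9%. Of the 86 probes, 36 lay below 0 (43.6% of all tested probes did), and 32 had an unadjusted p under 0.05 (36.6% of all tested probes did). The 13 probes carry 10 gene names, or 9 without the probe on chromosome 9. In 27 genes with several tested probes, all probes had the same sign in 18 (66.7%, against 58.3% of 7951 gene names), and the median range between probes of a gene was 0.27, against 0.36. Among the 13 probes, the gap between fertile slides 1 and 2 was over 50% of the group difference in 3: the MCM4 probe at base 1854, CDC7 and CCNE2. Of all probes called on the array, 2499 of 7066 had such a gap.

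Cow by cow, the median over the replication genes moved little, which was not particular to them. The like median over all tested probes ran from -0.06 in fertile cow 6 to 0.08 in subfertile cow 1. The median over the 36 genes of each cow's level minus the mean of its probe ran from -0.12 in fertile cow 5 to 0.08 in fertile cow 6, and from -0.02 in subfertile cow 4 to 0.11 in subfertile cow 5, and the groups overlapped. The median SD within groups was 0.22 for the 36 genes against 0.28 over all tested probes, and it was largest for RRM2 (0.94), MCM10 (0.72), MCM3 (0.49) and CCNE1 (0.45). Fertile cow 4 was the highest of the 11 cows for 6 genes, and its median over the members was 0.05. Subfertile cow 1 was the highest for 8 genes, and subfertile cow 5 for 6 and the lowest for none.

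**Figure D4:**
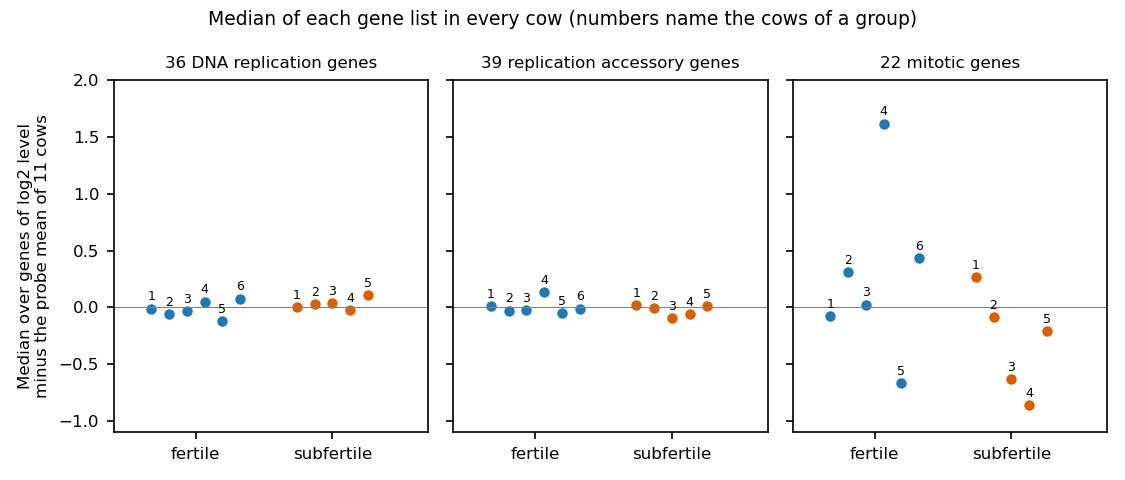
Median over the genes of a list of each cow's log2 level minus the probe's mean over 11 cows, for the 36 replication genes, the 39 replication accessory genes and the 22 mitotic genes; each point is a cow, numbered within its group. The replication medians lie between -0.12 and 0.11 in every cow and the accessory medians between -0.095 and 0.14. The mitotic medians run from -0.86 to 1.62, with fertile cow 4 at the top.

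Genes that act around the core machinery are described by lists chosen with earlier results of these data known. Of 26 tested genes of G1/S control, 3 rose, 3 fell and 20 did not pass, 23.1% called against 22.1% of all gene names, with a median of -0.05. Under median centring 2 rose and 4 fell. With normexp background correction 9 rose and 3 fell, when 14919 of all tested probes were higher and 2162 lower. With slide as a random block 2 passed, with scan day 1, and with the marker covariate 0 (limma, 6 at an unadjusted p under 0.05). Of all tested probes, 3670, 975 and 728 passed in these 3 settings. The CDK inhibitor CDKN1A rose by 1.05 ± 0.27 (limma, adjusted p = 0.0185), the G1 kinase CDK4 by 0.56 ± 0.09 (adjusted p = 0.00294) and the CDK4 inhibitor CDKN2C by 0.61 ± 0.20 (adjusted p = 0.0474), the last without a call when any of 9 cows was left out (all but fertile 3 and 4). The repressor E2F6 fell by 0.43 ± 0.09 (adjusted p = 0.00794), the retinoblastoma gene RB1 by 0.38 ± 0.10 (adjusted p = 0.0248) and MYBL2, a transcription factor of cycling cells, by 0.91 ± 0.26 (adjusted p = 0.0266). The other MYBL2 probe was at 0.09, that of CDKN2C at -0.0022 and those of E2F6 at 0.02 and -0.18, and none of these passed. Of the other CDK4 probes 1 passed, at 0.52, and the rest were at 0.19 and -0.03. The other CDKN1A probe, at 0.71, and the other RB1 probe, at -0.74, passed in the same direction. The RB1 call was lost without subfertile cow 3 or 4, and the MYBL2 call without fertile cow 3 or subfertile cow 3 or 5.

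Of 39 tested replication accessory genes, 5 rose, 6 fell and 28 did not pass, 28.2% called against 22.1% of all gene names, with a median of -0.11. Under quantile normalization 3 rose and 7 fell, and under median centring 2 and 8. With normexp background correction 12 rose and 2 fell, when 14919 of all tested probes were higher and 2162 lower. With slide as a random block 5 passed, with scan day 1, and with the marker covariate 0 (limma, 4 at an unadjusted p under 0.05). Of all tested probes, 3670, 975 and 728 passed in these 3 settings. POLH, a translesion polymerase, rose by 0.60 ± 0.09 (limma, adjusted p = 0.00152), ATAD5, which unloads PCNA, by 0.74 ± 0.17 (adjusted p = 0.0121) and POLE4, a polymerase epsilon subunit, by 0.52 ± 0.13 (adjusted p = 0.0187). The topoisomerase TOP2B fell by 0.46 ± 0.09 (adjusted p = 0.00463), the checkpoint kinase ATR by 0.56 ± 0.13 (adjusted p = 0.0113) and CHAF1A, which places histones behind the fork, by 0.74 ± 0.18 (adjusted p = 0.0153). The other POLH and ATAD5 probes were at -0.19 and -0.20, below 0, and the other CHAF1A probe was at -0.22; none of these passed. DBF4, the partner that activates CDC7, fell by 0.73 ± 0.20 on its brightest probe (adjusted p = 0.0221) and was at -0.29 on the other, which did not pass (adjusted p = 0.103).

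The mitotic genes differed in how far single cows stood apart. Of 22 tested, 0 rose, 2 fell and 20 did not pass, 9.09% called against 22.1% of all gene names. The median was -0.57, and 20 lay below 0 (90.9%, against 44.4% of gene names). With normexp background correction 6 were higher and 1 lower, when 14919 of all 31876 tested probes were higher and 2162 lower. With slide as a random block 1 passed, and with scan day or the marker covariate 0 (limma, 2 and 3 at an unadjusted p under 0.05). Of all tested probes, 3670, 975 and 728 passed in these 3 settings. Cyclin B1 (CCNB1), which drives entry into mitosis, fell by 0.53 ± 0.14 (limma, adjusted p = 0.0228), a call lost without subfertile cow 2, and its other probe, at -0.46, did not pass. No subfertile array held CENPE, which moves chromosomes at the kinetochore, well above background, so its fold is a bound, at least 2.28-fold lower. Its call (limma, adjusted p = 0.00426) set fertile signal against undetected subfertile values and gives no size, and normexp background correction put it at 0.47. Other genes were dim too: BUB1 carried the flag in 1 subfertile cow, CCNA2 and CENPF in 2, CCNB2 and NDC80 in 3, BIRC5 and BUB1B in 4. The list's median and its count below 0 include these dim genes. A probe flagged on the fertile arrays alone could enter the test, which favours differences below 0. No conclusion is drawn from that median or that count. Keeping only probes flagged on every array left 14 genes, of which 1 fell. The median of the list was 1.62 in fertile cow 4 against -0.67 to 0.43 in the other fertile cows and -0.86 to 0.27 in subfertile cows. Without fertile cow 4 the median difference was -0.33 for the mitotic genes and 0.09 for the replication genes. For RRM2, fertile cow 4 stood 2.17 above the mean of the probe.

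Genes of the list found only through RefSeq accessions, since the array gives them other names, add the origin recognition complex that marks where replication starts. ORC2 was at -0.10 ± 0.10, ORC3 at -0.01 ± 0.09, ORC4 at -0.23 ± 0.15, ORC5 at -0.15 ± 0.11 with 1 fertile array missing, and ORC6 at 0.12 ± 0.13. ORC1 had no tested probe. GINS2, of the GINS complex, was at 0.05 ± 0.20. None of these 6 tested genes passed (limma, adjusted p from 0.273 to 0.954), and with them the median over 42 genes was 0.01.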

How the data were processed

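Per the labels, total RNA of 1 endometrial biopsy a cow was labelled with Cy3 and hybridised to 1-colour arrays. The deposited scanner files hold a linear intensity for each spot. The submitters' processing notes name Agilent Feature Extraction 10.5.1.1. A deposited table of log2 values served as an alternative. Gene names came from 10 scanner files, since those of fertile cow 6 are out of register, and were joined by probe.

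Control and outlier spots were left out, processed signals taken to log2, each array's 75th percentile subtracted and spots of a probe averaged. Probes well above background on at least 5 of 11 arrays (31876) were tested with limma 3.58.1 in R 4.3.3 (lmFit, eBayes, group only, Benjamini-Hochberg, threshold 0.05); the code was tested on simulated data. The number of arrays limits the precision.

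Every member is named with its brightest probe. Values by cow are given for members with a called probe, the 4 lowest and the 4 highest differences, members with probes of opposite sign to a called one, and PCNA and RRM2; other values by cow (GMNN, MCM10) were added after they were seen. Of the other lists, up to 3 called genes in each direction by smallest p are named; DBF4 was added after its values were seen. The members, lists and rules were chosen with earlier results of these data known. A bound on a fold replaces each dim value by the array's lowest signal well above background where that is higher. Slide and scan day came from the file headers. Sequences came from the scanner files; motif codons were found by translating open frames. Promoters and proteins were not analysed here. Alternatives are in the closing section.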

Additional observations from a re-analysis of the deposited data

Results flagged for a closer look

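Among 74 groups of values examined (the brightest probe of 36 genes and the median over them, in each fertility group), a single cow lay far from the rest of its group in 4, by Dixon's ratio at the 95% level; chance gives about 1 in 20. For CCNE1, subfertile cow 5 was at -4.10 while the other subfertile cows lay between -5.73 and -5.37. For GINS3, subfertile cow 2 was at -0.32 and the others of its group between -0.12 and -0.09. For POLA1, a polymerase alpha subunit, fertile cow 6 was at -4.49 and the other fertile cows between -3.91 and -3.63. For POLD3, a polymerase delta subunit, fertile cow 3 was at -0.26 and the others between 0.04 and 0.21. These are 4 different cows.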

How the results depend on the processing

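For named probes, 1375 of 1546 values kept their direction or had no call to lose, and 129 lost a call, 36 gained one and 6 reversed; a turned sign without a call (56 values) counts among the first. All 6 reversals came with normexp background correction, which also moved the median of all tested probes from 0.07 to 0.33. They were CCNE1 0.76, CCNE2 0.44, POLA1 0.63, the RFC2 probe at base 928 0.053, the RRM2 probe at base 1528 0.25 and CENPE 0.47. This correction adds an offset of 50 to every signal. The median processed signal was 54.3 to 92.7 on subfertile and 161 to 452 on fertile arrays. The cause of the reversals was not tested. Normexp background correction called 11 member genes, 43 member probes, 17081 of all probes, 12 G1/S and 7 mitotic genes.

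Scan day as a random block called 0 member genes (limma, 3 at an unadjusted p under 0.05), 1 member probe, 975 of all probes, 1 G1/S, 1 accessory and 0 mitotic genes (2 unadjusted). Slide as a random block called 3670 of all probes, 2 G1/S, 5 accessory and 1 mitotic gene. With the marker balance as a covariate the counts were 1 member gene, 3 member probes, 728 of all probes and 0 G1/S, 0 accessory and 0 mitotic genes (6, 4 and 3 unadjusted). Without a filter on dim probes 5 member genes and 12179 of all probes passed, and with the strictest filter 1 of 14 mitotic genes. Array weights gave 8 member genes and 24 member probes, when 8288 of all 31876 tested probes passed. Trended robust variance gave 6 member genes, when 7188 of all probes passed. At a threshold of 0.1, 10 member genes, 27 member probes and 5 mitotic genes passed, when 10001 of all probes did.

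The replicate numbers did not pair the cows: 2 of 5 same-numbered pairs correlated over 0.1 and 1 of 5 fitted its own number best. With the replicate number as a block, 5 member genes, 3 G1/S genes and 1 mitotic gene passed, when 4761 of all 31876 tested probes did.

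The median difference of members was -0.018 with quantile normalization, -0.039 with median centring (all tested probes -0.015 and -0.025) and -0.03 with all probes of a gene averaged. The medians by cow that moved by more than their spread were, with normexp, -0.17, -0.20 and -0.039 in fertile cows 2, 5 and 6 and 0.087 and 0.18 in subfertile cows 1 and 5; with median centring, 0.13 and 0.23 in fertile cows 4 and 6 and -0.094 and -0.032 in subfertile cows 1 and 2; with quantile normalization, 0.043 in subfertile cow 5; with the strictest filter, 0.059 in subfertile cow 1; with probes averaged, -0.078 in fertile cow 6 and -0.027 in subfertile cow 2; and with the RefSeq-named genes added, a setting chosen after seeing the data, -0.032 in subfertile cow 3.

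Leaving out 1 cow at a time gave 2 to 6 member genes, 10 to 15 member probes, 4526 to 7297 of all probes, 4 to 6 G1/S, 9 to 12 accessory and 1 to 5 mitotic genes, and a median difference of 0.03 to 0.09. The mitotic count was 5 without fertile cow 5 and 1 without subfertile cow 2, and that of all probes 4526 without subfertile cow 2. Signal over background limits what dim probes can show: 4 of 5 subfertile arrays had fewer probes well above background than any fertile array.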
